A study of Saccharomyces cerevisiae with 12 samples.

Results

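Small reading frames of budding yeast (Saccharomyces cerevisiae) were followed in RNA-seq of cells with and without a domain of the transcription elongation factor Spt6. The frames are those whose systematic name carries a hyphen and a letter, as in YER053C-A, and whose RNA reached at least 1 RPKM (reads scaled to gene length and to library size) in at least 3 of the 6 RNA libraries. Of 560 such names among the 6571 genes of the deposited table, 480 passed this level, 80 did not, and 7 that passed were excluded by name, which left 473. The level used the same libraries that are compared below, so a frame silent in one strain was kept if the other strain expressed it. Of the 473 frames 448 reached 1 RPKM in all 6 libraries, 7 did so in the tSH2Δ libraries alone and 0 in the WT libraries alone. Just inside the level stood YNL067W-B, YNR001W-A and YBR298C-A, with a third-highest RPKM of 1.05, 1.32 and 1.33, and just outside it YBR200W-A, YML047W-A and YBL113W-A, with 0.978, 0.936 and 0.915.

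The libraries came from WT cells and from cells with the spt6-tSH2Δ allele, 3 each, and both genotypes carry the strain label S288C. All cultures were in YPD, a rich glucose medium, for 4 h from an OD600 of 0.2, without further treatment. Total RNA was freed of ribosomal RNA, made into stranded libraries and sequenced as single-end reads. Separate cultures are not stated for the replicates, so the p-values rest on a spread between libraries that may be technical. Nor do they state whether the mutant was 1 clone, and ATAC-seq libraries of the same genotypes were not analysed here. In RNA from whole cultures, fewer cells that express a gene and less RNA per cell cannot be told apart.

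Hyphenated names were given to reading frames that joined the yeast gene list after the chromosomes had been numbered, often because they were short, spliced or found through conservation or peptide data. The set therefore mixes very small but well known proteins, such as subunits of the mitochondrial import machinery and the kinetochore, with frames of unknown function and with frames that lie opposite a larger gene and may encode nothing. Spt6 accompanies transcribing RNA polymerase II, reassembles nucleosomes behind it and holds on to it through a tandem SH2 (tSH2) domain; loss of Spt6 function is known for RNA that starts inside genes or from normally silent DNA.

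Of the 473 frames 257 matched a RefSeq gene of assembly R64, and 131 of these had a standard name while 126 were known there by their systematic name alone. The other 216 had no match, so no coordinates or roles are given for them. The listed length ran from 50 to 1592 bases with a median of 236, against 1181 for the other genes tested. Not all were small: 324 were under 300 bases, and 7 had 900 or more, among them FCY22 (1592 bases, a purine-cytosine permease relative) and MEI4 (1225 bases, needed for meiotic recombination).

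The libraries held 20483931 to 27069700 reads, 84.6% to 87.6% of them in genes. A frame had a median of 171 to 200 reads in WT libraries and 375 to 394 in tSH2Δ libraries. Levels are given as rescaled RPKM, the deposited RPKM divided by median-ratio size factors of 0.813 to 0.829 in WT and 1.21 to 1.24 in tSH2Δ, and differences as tSH2Δ minus WT on the log2(rescaled RPKM + 1) scale, which understates the change of low genes. Without this scaling the median gene stood 0.57 higher in tSH2Δ. SPT6 itself was at 174, 182 and 185 rescaled RPKM in the WT libraries and 85.4, 83.8 and 84.4 in the tSH2Δ libraries (log2 difference −1.08, SE 0.035, limma adjusted p = 3.5e-08); values over the whole gene do not show which part of it was deleted.

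Among the 473 frames, 190 were higher in tSH2Δ, 178 were lower and 105 were not called at an adjusted p of 0.05 in limma. Changes of RNA level were widespread in these cells: of all 6307 genes tested, 83.5% were called, 41.7% higher and 41.9% lower, so the share of frames called (77.8%) was no larger than the background. The frames' median log2 difference was 0.05, with an interquartile range of −0.50 to 0.59, and that of all genes tested was 0.01. The WT and tSH2Δ values did not overlap in 354 frames, beside 84.7% of all genes tested. Called differences of at least 2-fold were seen in 68 of the 473 frames that rose and 47 that fell, beside 498 and 599 of the 6307 genes tested (7.9% and 9.5%). Large rises thus made up a larger share of the frames. At 10 to 100 rescaled RPKM 45 of 260 frames rose so far, beside 326 of 3853 other genes. The frames also had fewer reads and a larger median SE, 0.080 against 0.050 over all genes tested, and this share was not tested. The sign of the difference was the same under rescaled, deposited and quantile-normalized RPKM for 183 of the 190 frames called higher and for 101 of the 178 called lower. Quantile normalization gives all 6 libraries the same distribution of values, so it removes a fall that the most abundant genes share. With RPKM as deposited 329 frames were called higher and 74 lower, beside 72.4% and 17.3% of all genes tested, so the fall of a frame by a small amount is relative to the median gene.

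Frames with and without a RefSeq match were called in like numbers. In RefSeq 100 of 257 were higher and 98 lower, and among the unmatched frames 90 of 216 were higher and 80 lower. Within RefSeq, frames with a standard name were lower more often than higher (43 higher and 61 lower of 131, median −0.09), and those known by systematic name alone were higher more often (57 higher and 37 lower of 126, median 0.25). As deposited the medians were 0.48 and 0.75, and after quantile normalization 0.098 and 0.13. Their levels differed too, with medians in WT of 62.95 rescaled RPKM for standard names and 15.11 for systematic names alone. Direction followed level in other genes as well, as given below. The difference between these kinds was not tested.

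**Figure D1:**
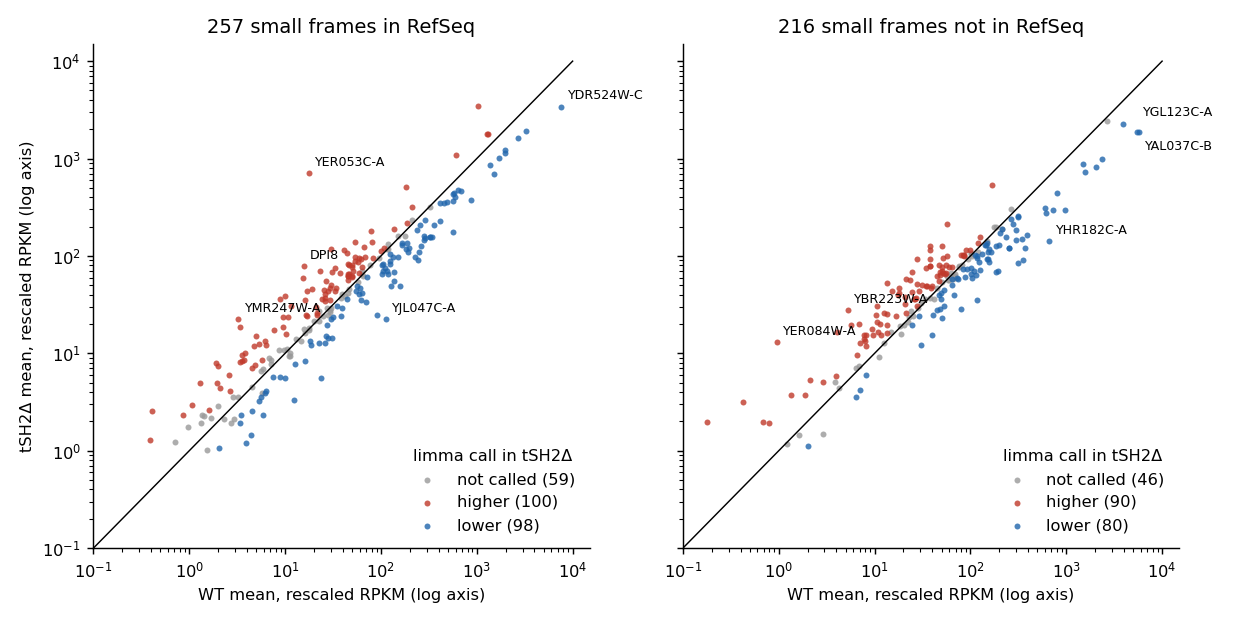
Mean rescaled RPKM of each frame in WT (x axis) and tSH2Δ (y axis), 3 libraries each, on log axes, for frames with a RefSeq match (left) and without (right). Colours give the limma call and the line marks equal levels; YER053C-A stands far above it, at 17.8 in WT and 712 in tSH2Δ.

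YER053C-A rose more than any other of the 6307 genes tested. This frame (chromosome V, 260933 to 261046, assembly R64) has a listed length of 113 bases. It was at 11.5, 22.3 and 19.5 rescaled RPKM in the WT libraries and 716, 714 and 706 in the tSH2Δ libraries (log2 difference 5.29, SE 0.20, limma adjusted p = 6.1e-08). The 3 tSH2Δ values lay close together and far above the WT values. On average 35 reads in WT and 2542 reads in tSH2Δ stood behind them. The authors' deposited table also has it at rank 1, with a log2 ratio of 5.81. Its neighbours in RefSeq rose far less: PIC2, a mitochondrial copper and phosphate carrier 1293 bases to the left, by 1.41, and GIP2, a protein phosphatase regulator 1005 bases to the right, by 0.93. YER053C-A has no standard name, and the table used gives it no role.

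Among the other large rises were frames with a standard name. DPI8 (chromosome X, 159623 to 159847) was at 15.6, 16.9 and 15.0 rescaled RPKM in the WT libraries and 79.0, 80.3 and 78.0 in the tSH2Δ libraries (log2 difference 2.25, SE 0.049, limma adjusted p = 9.0e-09), and its groups lay far apart. COA2 (chromosome XVI, 188307 to 188513), which assists the assembly of cytochrome c oxidase, was at 33.4, 30.9 and 26.2 rescaled RPKM in the WT libraries and 114, 119.8 and 122 in the tSH2Δ libraries (log2 difference 1.95, SE 0.080, limma adjusted p = 1.0e-07). Relative to the median gene its neighbours moved the other way: NAB3 fell by 0.29 and GUP2 by 0.79 on the log2 scale. As deposited the median gene itself stood 0.57 higher, so the smaller of these falls depends on the scaling. SPO24 (chromosome XVI, 645950 to 646153), a small protein named for its part in sporulation, was already abundant in WT, at 1040.2, 1044 and 1025 rescaled RPKM in the WT libraries and 3326, 3303 and 3699.5 in the tSH2Δ libraries (log2 difference 1.73, SE 0.068, limma adjusted p = 8.1e-08). Its neighbours VMA13 and ERV2 fell relative to the median gene, by 0.64 and 0.52. EGO4 (chromosome XIV, 692561 to 692857), named for the EGO complex that anchors TORC1 signalling at the vacuole, was at 22.0, 22.7 and 24.3 rescaled RPKM in the WT libraries and 70.1, 71.1 and 66.7 in the tSH2Δ libraries (log2 difference 1.55, SE 0.049, limma adjusted p = 2.9e-08). In each of these 4 genes every tSH2Δ library stood above every WT library. Groups without overlap were common, at 84.7% of all genes tested.

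Several of the largest rises started from a few reads. YMR247W-A was at 4.00, 0.840 and 4.87 rescaled RPKM in the WT libraries and 21.8, 23.9 and 21.9 in the tSH2Δ libraries (log2 difference 2.63, SE 0.38, limma adjusted p = 2.0e-04). It lies 1374 bases from GAD1, a glutamate decarboxylase that rose by 3.02. YHL015W-A lies between DUR3, a urea and polyamine transporter that rose by 1.46, and RPS20, a ribosomal protein gene that fell by 1.25. It was at 3.14, 2.90 and 4.20 rescaled RPKM in the WT libraries and 17.6, 20.0 and 18.1 in the tSH2Δ libraries, a difference of 2.16. YGR146C-A was at 6.79, 7.84 and 11.9 rescaled RPKM in the WT libraries and 40.7, 34.1 and 33.5 in the tSH2Δ libraries, a difference of 1.94. Its nearest gene ECL1 fell by 0.34 relative to the median gene. The groups did not overlap in any of these 3 frames, nor in 84.7% of all genes tested.

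The unmatched frames YER084W-A, YBR223W-A, YFR052C-A and YIR030W-A completed the 10 largest rises. YER084W-A was at 0.915, 0.939 and 1.02 rescaled RPKM in the WT libraries and 13.4, 13.8 and 12.0 in the tSH2Δ libraries (log2 difference 2.84, SE 0.093, limma adjusted p = 3.5e-08). The gene of the next number on the opposite strand, YER085C, rose in step, from 0.610 to 11.1. YFR052C-A rose by 1.92, and HXK1, the hexokinase gene with the next number on the same strand, by 3.22. YIR030W-A rose by 1.90, from 13.4 to 52.7, and DAL7, a malate synthase gene on the opposite strand with the next number, by 1.97, from 14.7 to 60.4. YBR223W-A rose by 2.27, and TDP1, a DNA repair gene on the opposite strand with the same number, by 1.23.

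The largest fall was that of YJL047C-A (chromosome X, 349044 to 349178). It was at 104, 102 and 129 rescaled RPKM in the WT libraries and 21.1, 21.4 and 25.2 in the tSH2Δ libraries (log2 difference −2.25, SE 0.10, limma adjusted p = 1.5e-07), with every WT library above every tSH2Δ library. It shares 49 bases, 36.3% of its span, with the snoRNA gene SNR60, and its protein-coding neighbours UBX6 and RTT101 rose, by 1.33 and 0.28. Reads from the snoRNA and from the frame cannot be told apart in the shared bases.

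HUG1 (chromosome XIII, 158760 to 158966), a small inhibitor of ribonucleotide reductase that is known as a target of the DNA damage checkpoint, was at 23.5, 25.7 and 22.0 rescaled RPKM in the WT libraries and 5.83, 7.43 and 3.42 in the tSH2Δ libraries (log2 difference −1.96, SE 0.21, limma adjusted p = 2.7e-05). Its neighbour SML1, the other small inhibitor of that enzyme, was not called, with a difference of −0.08. MIN9 (chromosome XI, 393146 to 393373) was at 550.5, 528 and 611 rescaled RPKM in the WT libraries and 177, 179.9 and 166 in the tSH2Δ libraries (log2 difference −1.68, SE 0.061, limma adjusted p = 5.3e-08), and URA6, a nucleotide kinase gene 5 bases away on the same strand, fell by 1.73. YCL021W-A fell from 91.3 ± 14.2 to 24.6 ± 1.85 (SD, n = 3; difference −1.84). YNR075C-A, near the COS10 gene that fell by 1.01, was lower by 1.66 from a low level, 12.4 to 3.31. The groups did not overlap in any of these 4 frames, nor in 84.7% of all genes tested.

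**Figure D2:**
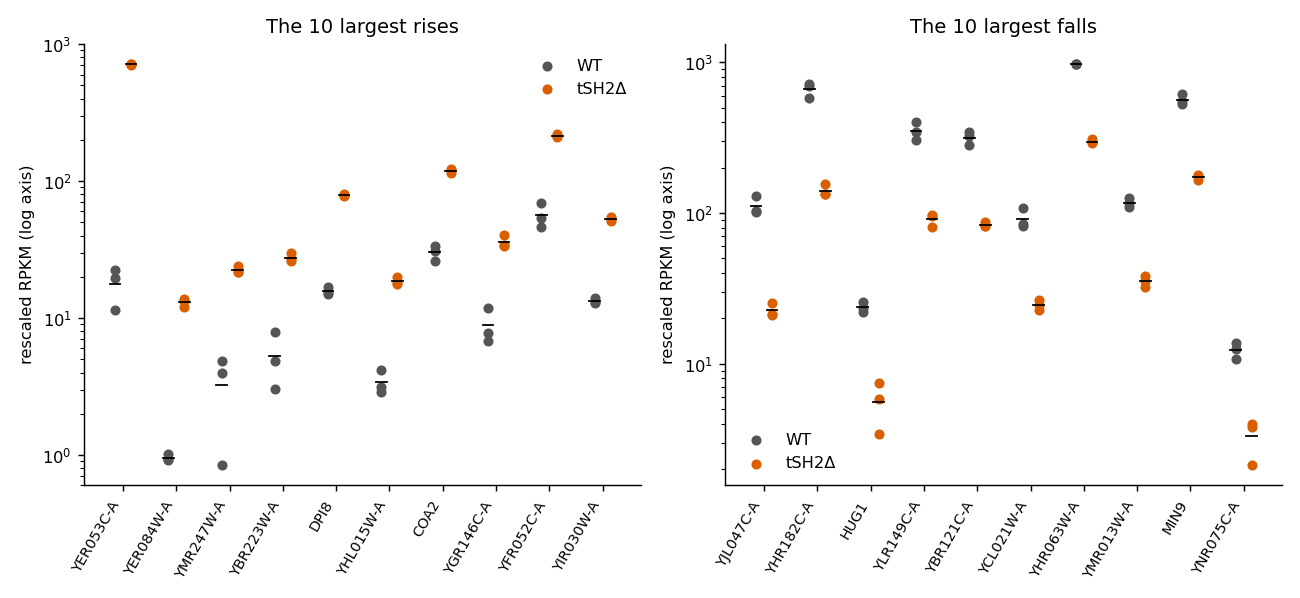
Rescaled RPKM (log axis) in each library for the 10 frames with the largest rise (left) and the 10 with the largest fall (right) among those whose higher group averaged 5 rescaled RPKM or more. Points are the 3 WT and 3 tSH2Δ libraries and bars their means. The groups do not overlap in any of the 20 frames, which follows largely from their choice by size of change. In all genes tested 84.7% do not overlap.

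The other 5 of the 10 largest falls belonged to frames without a RefSeq match. YHR182C-A was at 722, 698 and 582 rescaled RPKM in the WT libraries and 133, 133 and 156 in the tSH2Δ libraries (log2 difference −2.23, SE 0.092, limma adjusted p = 1.1e-07). GND1, the phosphogluconate dehydrogenase gene with the next number on the opposite strand, fell by 2.23 as well, from 903 to 191, so that YHR182C-A stood at 0.74 of the level of GND1 in both strains. YBR121C-A fell by 1.90 and GRS1, a glycyl-tRNA synthetase gene with the same number and strand, by 1.71. YHR063W-A fell by 1.70 and SSZ1, a ribosome-bound Hsp70 gene on the opposite strand, by 1.60. YLR149C-A fell by 1.93, and STM1, a ribosome-binding protein gene on the opposite strand, by 1.51. YMR013W-A, which fell by 1.69, followed neither gene of its number nor the next: SEC59 rose by 0.58 and BUD22 fell by 0.43.

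Of the 3 most abundant frames in WT, YAL037C-B and YGL123C-A showed the same resemblance. YAL037C-B was at 6171, 5728 and 5298 rescaled RPKM in the WT libraries and 1874, 1851 and 1865 in the tSH2Δ libraries, a difference of −1.62. CDC19, the pyruvate kinase gene on the opposite strand with the next number, was at 6778 and 2198 on average, a difference of −1.62, and the frame stood at 0.85 of its level in both strains. YGL123C-A, with the number of RPS2 on the other strand, fell by 1.54, and RPS2, a small-subunit ribosomal protein gene, by 1.50. The ratio of the frame to RPS2 was 1.76 in WT and 1.72 in tSH2Δ. YDR524W-C (chromosome IV, 1489403 to 1489492) has a listed length of 89 bases and a match in RefSeq. It was the highest of all frames in WT, at 6239, 7346 and 9196 rescaled RPKM in the WT libraries and 3599, 3563 and 3066 in the tSH2Δ libraries. It was lower by 1.14 (SE 0.15, limma adjusted p = 1.3e-04), and by 0.56 as deposited. It stood 0.06 higher after quantile normalization, which removes a fall shared by the most abundant genes. The frame 105 bases to its right, YDR524C-B, fell by 0.67.

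The sources used here do not give the counting strand, so a frame and a gene on the opposite strand may hold each other's reads, and their values are uncertain. Such pairs were therefore described over all frames, as pairs that share libraries and are not independent. Of the 257 RefSeq frames 18 overlap another RefSeq gene. Counted from each frame these are 19 pairs, of which 15 are on opposite strands. The frames DPC13 and YGL041C-B overlap each other and so enter from both sides. The shared stretch could be short, as the 4 bases of KTI11 and YBL071C. In those 15 pairs 14 log2 differences had the same sign, Pearson's r was 0.76 and the median gap between frame and partner was 0.14. NAG1, a cell wall integrity gene that lies wholly opposite IMO32, was at 33.7 in WT and 46.9 in tSH2Δ, and IMO32 at 39.4 and 55.1. YIL105W-A, wholly opposite SLM1, was at 57.7 and 87.2, and SLM1 at 58.9 and 83.8. FMP49, opposite HVG1 over 98.7% of its span, rose by 1.35 and HVG1 by 1.13. BUD25 lies opposite HEM14 and FAA2, and it fell with HEM14, by 0.40 and 0.54, while FAA2 rose by 1.25. For the 211 RefSeq frames with no overlap and a measured neighbour, r with the nearest gene was 0.23 and the median gap 0.54.

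The unmatched frames resembled the gene of their own number where it lay on the opposite strand. In 159 such pairs r was 0.61, 80.5% had the same sign and the median gap was 0.18. The level of the frame was within 1.5 times that of its partner in both strains in 62 of the 159 pairs. In the 127 pairs of RefSeq frames named in the same way r was 0.22, the median gap was 0.60 and 27 pairs were within that range. Where the gene of the same number lay on the same strand, r was 0.17 over 55 unmatched pairs. For 125 unmatched frames with the next number on the opposite strand r was 0.57 and the median gap 0.30, and for 85 with the next number on the same strand 0.35 and 0.60. The names give neighbours and not overlap, since no coordinates are at hand for the unmatched frames.

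**Figure D3:**
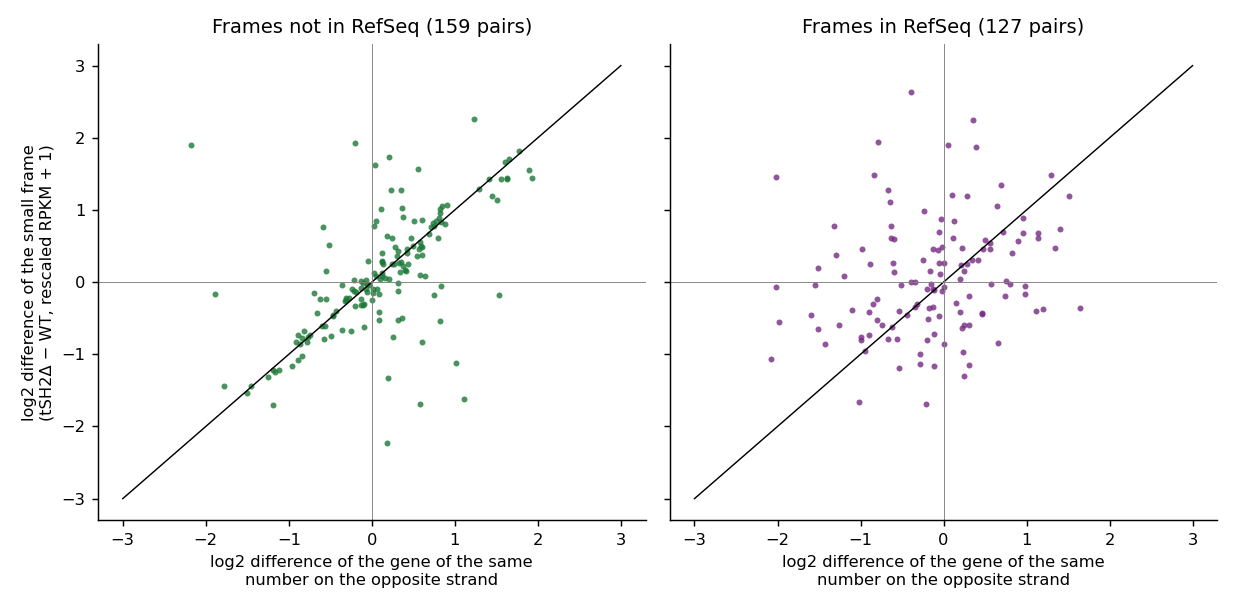
Log2 difference (tSH2Δ minus WT) of the gene of the same number on the opposite strand (x axis) and of the frame (y axis), 1 point per pair, for 159 unmatched frames (left) and 127 frames in RefSeq (right). The line marks equal differences. The points on the left mostly lie closer to it (r = 0.61, 80.5% of the same sign, median gap 0.18). Those on the right scatter more (r = 0.22, 60.6% of the same sign, median gap 0.60).

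Frames with known proteins were read out by complex, beside the other genes of the same lists. Over all lists 54 frames were measured, of which 11 were higher, 30 lower and 13 not called. Their median was −0.26, which became 0.32 with RPKM as deposited and 0.13 after quantile normalization. Of the 120 other genes of these lists 41 were higher and 63 lower. Among all genes tested 41.7% were higher and 41.9% lower. Abundant genes outside the frames were mostly lower too, 1086 of 1464 at 100 to 1000 rescaled RPKM. Whether the falls within a list differ from those of genes of like level was not tested. The lists were drawn up with earlier results of these data known, and their counts are descriptions.

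In mitochondria, the small import proteins TIM8, TIM9, TIM10 and TOM5 were lower relative to the median gene, though TIM9, TIM10 and TOM5 stood higher under the other scalings. TIM8, TIM9 and TIM10, chaperones that carry membrane proteins across the intermembrane space, differed by −0.59, −0.28 and −0.41, and TIM9 and TIM10 stood higher with RPKM as deposited, by 0.30 and 0.17, and after quantile normalization. TIM10 was at 581, 598 and 709 rescaled RPKM in the WT libraries and 475, 467 and 471 in the tSH2Δ libraries, and its groups did not overlap. Of the 5 chaperone genes 4 were lower and 1 was higher, while as deposited 2 were called higher and none lower, and after quantile normalization 2 each way. The one called higher was TIM12, by 0.20 (limma adjusted p = 0.046), a call lost without WT replicate 2 or 3 or tSH2Δ replicate 2 or 3 (limma adjusted p up to 0.16). TOM5, a small subunit of the outer membrane channel, was lower by 0.35, but higher by 0.23 as deposited and 0.15 after quantile normalization; all 7 genes of the TOM list were lower, TOM7 the most (−0.95), and as deposited 3 of them were lower and 2 higher. MIC10, which bends the inner membrane at crista junctions, was at 135, 114 and 122 rescaled RPKM in the WT libraries and 84.0, 83.8 and 101 in the tSH2Δ libraries (log2 difference −0.46, SE 0.086, limma adjusted p = 0.001); as deposited it stood 0.12 higher. Of the 6 genes of the MICOS list, the complex of crista junctions, 3 were higher and 2 lower, and MIC27 rose by 0.98, with the same sign under every scaling.

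Small proteins of the respiratory machinery went both ways. Beside COA2, the assembly factor COX19 rose under every scaling (log2 difference 0.59, SE 0.070, limma adjusted p = 6.0e-05), from 61.4 ± 6.00 to 92.4 ± 4.05 rescaled RPKM (SD, n = 3). COA3, CMC4 and COA6 were lower by 0.35, 0.30 and 0.22, each higher as deposited, COA6 was no longer called without tSH2Δ replicate 3 (limma adjusted p = 0.052), and CMC2 was not called (0.050). Of the 17 measured genes of the assembly list 8 were higher and 6 lower; CMC1 on chromosome XI fell the most (−1.01). COX26, a small subunit bound to the respiratory supercomplex, was at 1.30, 1.80 and 2.61 rescaled RPKM in the WT libraries and 9.09, 8.29 and 6.44 in the tSH2Δ libraries (log2 difference 1.63, SE 0.18, limma adjusted p = 4.1e-05). STF1, which stabilizes the inhibited ATP synthase, was at 30.8, 29.1 and 32.4 rescaled RPKM in the WT libraries and 71.1, 65.1 and 68.3 in the tSH2Δ libraries (log2 difference 1.12, SE 0.052, limma adjusted p = 1.8e-07), and its relative STF2 rose by 0.88. MCO10, another small ATP synthase-associated protein, rose by 0.78. Of the 17 genes of the ATP synthase list, which holds STF1 and STF2, 3 were higher and 10 lower. ATP7 on chromosome XI fell the most of them (−0.93). As deposited 13 of the 17 were higher and 1 lower, and after quantile normalization 14 and 1. The ATP synthase subunits TIM11 and ATP18 were not called (−0.0050 and −0.030, SE 0.054 and 0.10), and ATP19 was lower by 0.23, but higher by 0.35 as deposited and 0.51 after quantile normalization, and no longer called without WT replicate 2 or 3 or tSH2Δ replicate 2 or 3 (limma adjusted p up to 0.13). MDM35, which carries phosphatidic acid between the membranes with its partner Ups1, was at 148, 134 and 129.9 rescaled RPKM in the WT libraries and 52.0, 50.9 and 63.2 in the tSH2Δ libraries (log2 difference −1.30, SE 0.085, limma adjusted p = 1.4e-06). MRP10, a mitochondrial ribosomal protein, was higher by 0.16 at an adjusted p of 0.030 in limma, a call that was lost without WT replicate 1 or 2 or any tSH2Δ replicate (adjusted p in limma up to 0.11).

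In the secretory pathway and at membranes most small subunits were lower. Among genes outside the frames at 100 to 1000 rescaled RPKM, 1086 of 1464 were lower too. SBH1, the small beta subunit of the Sec61 translocon, was at 190.0, 191 and 195 rescaled RPKM in the WT libraries and 109, 115 and 109 in the tSH2Δ libraries (log2 difference −0.79, SE 0.035, limma adjusted p = 1.6e-07). SEC61, the channel itself, fell by 1.29, and all 5 genes of the translocon list were lower, 4 of them also as deposited. SBH2, the counterpart in the Ssh1 translocon, was lower by 0.47, but higher by 0.11 as deposited and 0.31 after quantile normalization. OST5, a subunit of the enzyme that attaches N-glycans, was lower by 0.60, as were 6 of the other 8 genes of its list; as deposited 4 of all 9 were lower and 2 higher. SPC1, a subunit of signal peptidase, was higher under every scaling (log2 difference 0.31, SE 0.055, limma adjusted p = 7.9e-04), while SPC3 was lower by 0.49 and higher by 0.089 as deposited. YSY6 and YOS1 were lower by 0.39 and 0.29, both higher under the other scalings, and KSH1 was not called (0.14) unless WT replicate 1 was left out (0.22, limma adjusted p = 0.0017). ERI1 of the GPI anchor pathway was lower by 0.41, TSC3, an activator of sphingolipid synthesis, by 0.24, and each stood higher as deposited, by 0.15 and 0.34.

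The small partners of the proton pumps were lower, as was PMA1 and as were most genes of like level. Outside the frames, 1086 of 1464 genes at 100 to 1000 rescaled RPKM were lower (median −0.53). At 1000 or more 109 of 113 were lower (median −1.03). VMA9, a small subunit of the V-ATPase membrane sector, was at 196, 201 and 189 rescaled RPKM in the WT libraries and 114, 123 and 127 in the tSH2Δ libraries (log2 difference −0.69, SE 0.046, limma adjusted p = 1.7e-06). All 7 genes of the Vo sector were lower, VPH1 the most (−0.87), and as deposited 3 were lower and 2 higher. PMP1 and PMP2, tiny proteolipids that regulate the plasma membrane proton pump, were lower by 0.78 and 0.86, and the pump gene PMA1 by 1.19; after quantile normalization PMP1 stood 0.13 higher. PMP1 was at 3189, 3221 and 3379.9 rescaled RPKM in the WT libraries and 1834, 1794 and 2069 in the tSH2Δ libraries, and its groups did not overlap.

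All 5 genes of the small ribosomal protein list were lower relative to the median gene, while 4 of them were called higher and 1 lower after quantile normalization, and 2 lower and none higher as deposited. RPL29 was at 1812, 1839.6 and 1521 rescaled RPKM in the WT libraries and 1029, 998 and 1027 in the tSH2Δ libraries (log2 difference −0.75, SE 0.080, limma adjusted p = 2.9e-05); after quantile normalization it stood 0.19 higher. RPL43B and RPL41B were lower by 0.56 and 0.37, both higher under the other scalings, the call of RPL41B was lost without WT replicate 1 or 2 or any tSH2Δ replicate (adjusted p in limma up to 0.089), and their paralogs are near-identical, so the counts of each copy are uncertain. RPL2A, RPL19A, RPL34A and RPL36B, named here after their values were seen, have close paralogs too and were lower by 1.21, 0.77, 0.69 and 1.13; RPL19A and RPL34A stood higher after quantile normalization, by 0.14 and 0.23. NOP10, a core protein of H/ACA snoRNPs that guide pseudouridylation, was lower by 0.61, and GAR1 of the same particle by 1.33; after quantile normalization NOP10 stood 0.20 higher. All 4 measured genes of the H/ACA list were lower, and after quantile normalization 3 were lower and 1 higher. LSM3 of the Lsm ring was lower by 0.46, higher by 0.12 as deposited, and LSM8, the subunit that marks the nuclear ring, was higher by 1.01. Of the 8 genes of the Lsm ring 1 was called higher and 4 lower, but as deposited 5 higher and none lower, and after quantile normalization 3 each way. In the SF3b splicing complex, which holds the small subunit YSF3, 4 of 6 genes were higher and 1 lower, and as deposited 5 higher and none lower. YSF3 was not called (0.039), CUS1 rose the most of its complex (0.65) and HSH155 was lower by 0.63.

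The small transcription subunits RPC10, TFB5 and SUS1 did not pass the test. RPC10, shared by the RNA polymerases, was at 213, 226 and 200.4 rescaled RPKM in the WT libraries and 247, 225 and 224 in the tSH2Δ libraries (log2 difference 0.12, SE 0.057), and stood 0.70 higher as deposited and 0.67 higher after quantile normalization, while RPB8 was lower by 0.77. TFB5 of TFIIH differed by −0.044 (SE 0.094), and SUS1, shared by SAGA and the TREX-2 export complex, by −0.094 (SE 0.047). The WT and tSH2Δ ranges overlapped in all 3. Without WT replicate 2 RPC10 was called higher (0.17, limma adjusted p = 0.037), and without tSH2Δ replicate 3 SUS1 was called lower (−0.14, limma adjusted p = 0.020). SEM1, shared by TREX-2 and the proteasome, was lower by 0.38, but stood 0.20 higher as deposited and 0.44 higher after quantile normalization.

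At the kinetochore and spindle the small subunits differed among themselves. NBL1, the yeast counterpart of borealin in the chromosomal passenger complex, was at 26.7, 23.5 and 30.1 rescaled RPKM in the WT libraries and 56.5, 53.5 and 56.1 in the tSH2Δ libraries (log2 difference 1.03, SE 0.080, limma adjusted p = 4.1e-06). The other 3 genes of that complex rose too, under every scaling: IPL1, the Aurora kinase, by 0.84, and BIR1 and SLI15 by 0.60 each. In the Dam1 ring DAD4 rose by 0.48, DAD3 was lower by 0.34 (higher by 0.24 as deposited), and HSK3 on chromosome XI fell (log2 difference −1.04, SE 0.037, limma adjusted p = 5.3e-08). Of the 10 genes of the Dam1 list 5 were higher and 4 lower, and as deposited 7 were higher and 3 lower. DAM1 rose the most (0.95), and DAD2, on chromosome XI as well, fell the most (−1.36). PCC1 of the KEOPS complex, which modifies tRNA, was at 133, 122 and 131 rescaled RPKM in the WT libraries and 46.7, 52.2 and 47.0 in the tSH2Δ libraries (log2 difference −1.38, SE 0.055, limma adjusted p = 8.5e-08) and also lies on chromosome XI. Of the 5 genes of the KEOPS list 2 were higher, BUD32 the most (0.33), and 3 lower. As deposited 2 were higher and 1 lower. Among the small regulators, HUB1, LSO1, LSO2 and MAK31 were not called, with differences of −0.028, 0.25, 0.15 and 0.050, and EGO2 was not called either (−0.056). Of the 6 genes of the EGO list, which also holds EGO4, 3 were higher and 2 lower, and as deposited 5 were higher and 1 lower. SLM4 was higher by 0.85, and MEH1 on chromosome XI was lower by 0.85. LSO1 was called higher without WT replicate 3 (0.45, limma adjusted p = 0.0049) and LSO2 without tSH2Δ replicate 3 (0.29, limma adjusted p = 0.014).

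**Figure D4:**
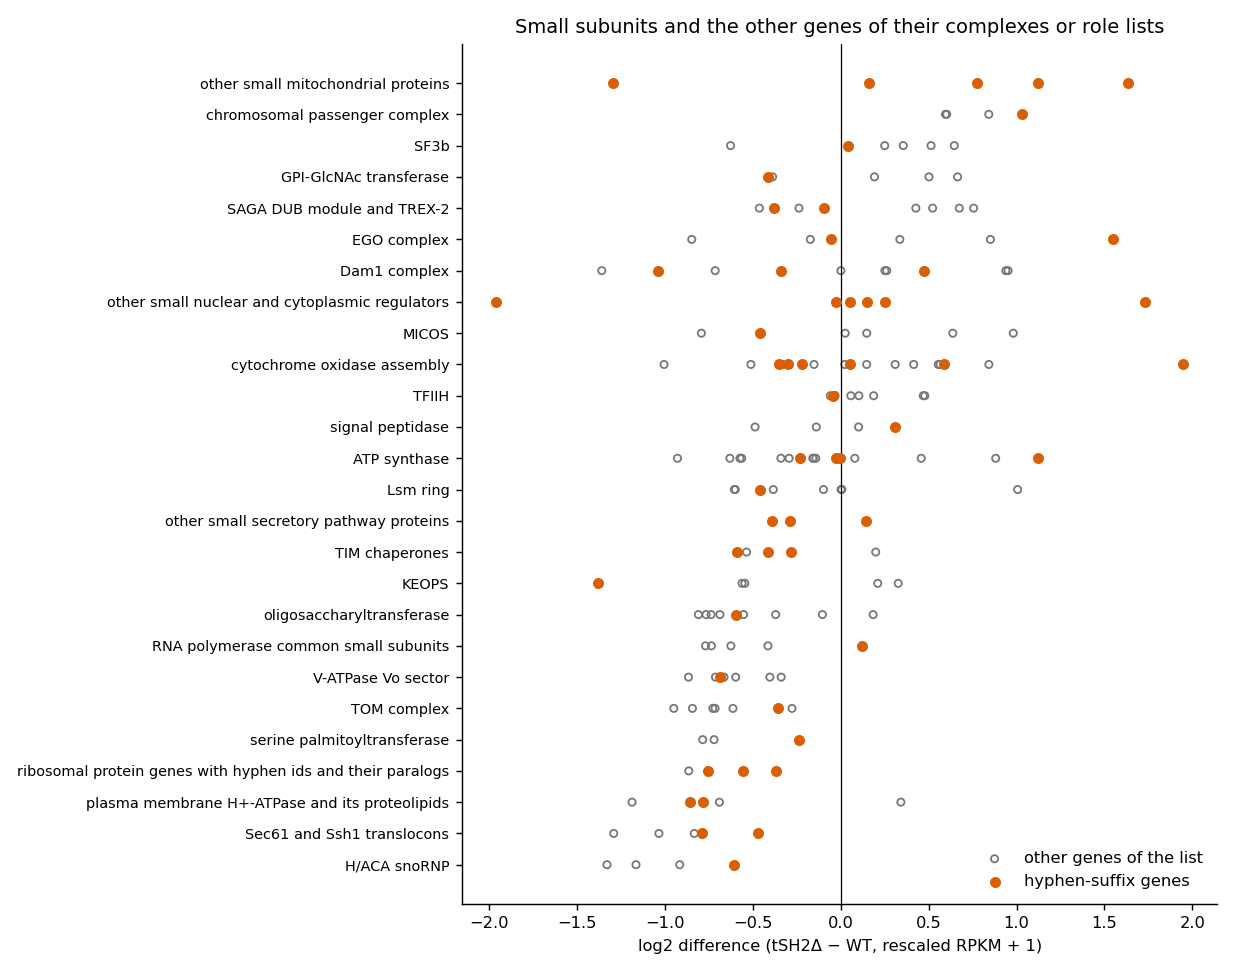
Log2 difference (tSH2Δ minus WT, x axis) of each measured gene in 26 complexes or role lists, ordered by list median. Filled points are hyphen-suffix genes and open points the other genes of the list; COA2 (1.95), SPO24 (1.73) and HUG1 (−1.96) lie outermost.

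Further frames with a standard name changed at least 2-fold, and are named here after their values were seen. Of the 131 frames with a standard name 16 rose so far and 12 fell so far, beside 7.9% and 9.5% of all genes tested. Each of these frames had the same sign under the 3 scalings. The shares were not tested against those of all genes. HTL1, a subunit of the RSC chromatin remodeler, was at 72.8, 81.2 and 81.4 rescaled RPKM in the WT libraries and 181, 186 and 173 in the tSH2Δ libraries (log2 difference 1.19, SE 0.052, limma adjusted p = 1.5e-07). BIL1, a partner of the actin regulator Bud6, rose by 1.28. TMA20, a ribosome recycling factor, fell by 1.19, TMA7 by 1.04, and SFT1, a SNARE of the Golgi, by 1.06. CCW14, a cell wall protein, fell by 1.11.

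The direction of change followed the level of the frame, as it did for other genes. Frames with a mean of 10 to 100 rescaled RPKM over the 6 libraries were more often higher (135 higher and 65 lower of 260), and those of 100 to 1000 more often lower (16 higher and 79 lower of 111). Other genes of the same levels gave 1993 higher and 1194 lower of 3853, and 242 higher and 1086 lower of 1464. As deposited, the median difference of the frames was 0.80 at 10 to 100 and 0.17 at 100 to 1000, and after quantile normalization 0.10 and 0.03. At least 1000 was reached by 19 frames, of which 3 were higher and 15 lower, and by 113 other genes, of which 2 were higher and 109 lower. After quantile normalization, which removes a fall shared by the most abundant genes, 7 of these 19 frames were higher and 6 lower. Their median difference was then 0.14. Length made less difference: 47 of 104 frames under 150 bases were higher and 36 lower, and 61 of 149 frames of at least 300 bases were higher and 59 lower.

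Frames with an intron, read from a RefSeq span at least 10 bases longer than the listed length, were mostly lower. Among 30 such frames 4 were higher and 21 lower (median −0.48), beside 41.7% and 41.9% of all genes tested. Among the 227 RefSeq frames without an intron 96 were higher and 77 lower (median 0.13). As deposited, the frames with an intron had a median of 0.083 and those without one 0.68, and after quantile normalization −0.30 and 0.15. The 4 that rose were NBL1, COI1, MRA1 and YJR112W-A. The median WT level was 94.8 rescaled RPKM for frames with an intron and 29.1 for those without one, so the counts are also given within level classes. At 10 to 100 rescaled RPKM 3 of 15 with an intron were higher and 7 lower, against 60 and 29 of 115 without one. At 100 to 1000 the numbers were 1 higher and 10 lower of 11, against 9 higher and 29 lower of 45. Genes outside the frames gave 1993 higher and 1194 lower of 3853 at 10 to 100. At 100 to 1000 they gave 242 higher and 1086 lower of 1464. The difference between frames with and without an intron was not tested.

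**Figure D5:**
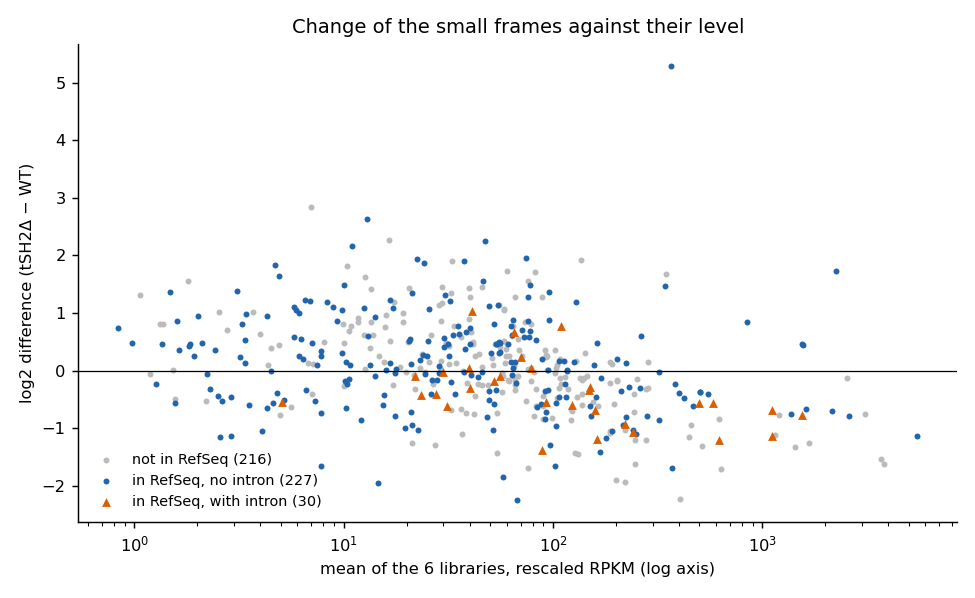
Log2 difference (tSH2Δ minus WT, y axis) of each frame against its mean rescaled RPKM over the 6 libraries (x axis, log scale). Triangles are the 30 frames with an intron; above 100 rescaled RPKM most points lie under 0.

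On chromosome XI most frames were lower, as were most other genes of that chromosome. Its 19 frames, of which 15 were lower and 3 higher, had a median of −0.86. Its 323 other genes, of which 282 were lower and 18 higher, had a median of −0.84. As deposited the medians were −0.33 and −0.27. The frames elsewhere had 187 higher and 163 lower of 454, with a median of 0.07. YKL068W-A was among the 3 that rose, from 188 to 217 (difference 0.20). MIN9, MDM35, HSK3, PCC1 and SFT1 all lie on this chromosome, so their falls go with that of the chromosome. The part of the chromosome's shift in these falls was not tested.

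The authors' deposited table lists genes with an adjusted p-value under its threshold and a log2 ratio of mean RPKM, without the rescaling used here. It has 146 of the 473 frames, 118 higher and 28 lower, beside 36.6% of all 6571 genes higher and 7.38% lower. No frame in it has a log2 ratio between −0.52 and 0.54, so frames with small ratios on that scale are absent. From the authors' deposited table, of the 118 frames listed as higher, 116 were called higher here and 2 were not called, and all 28 listed as lower were called lower. Another 74 frames called higher here and 150 called lower are not in the authors' deposited table. How many of these are absent for their small ratio was not counted, so their absence is no sign of disagreement.

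Frames with few reads were called less often than frames with many. Of the 86 frames with a mean under 50 reads 64.0% were called, with a median SE of 0.18, and of the 79 with at least 1000 reads 92.4% were called, with a median SE of 0.059. A frame that was not called at low depth may therefore differ by an amount these libraries could not show.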

How the data were processed

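RNA-seq libraries of WT and tSH2Δ yeast, 3 each, were analysed. The authors deposited RPKM values for 6571 genes with gene lengths (the listed length in bases), and a table of selected genes with log2 ratios of mean RPKM and adjusted p-values, per the file headers. Per the submitters' processing notes the build was sacCer3 and the tools named, without roles, were Trim Galore 0.4.1, HTSeq 0.6.1, DESeq, DESeq2, deepTools 2.2.4, bedtools 2.25.0, Bowtie 1.1.2, SAMtools (versions 0.1.9 and 1.3.1) and Bowtie2. The sources used here do not give the annotation, the strand setting or what was done with multiply aligned reads. Strand was read from the W or C of the systematic name.

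RPKM times gene length gave whole reads for 100% of values (tolerance 0.01 reads). The row that names no gene, 0.513% to 0.926% of reads, was left out. Chi-square per gene between replicates was 3.11 to 18.4, so no pair agreed within sampling noise. Replicate 3 stood apart in both genotypes. Its pairs gave 14.5 and 8.93 in WT and 18.4 and 12.2 in tSH2Δ, against 3.19 and 3.11 for replicates 1 and 2. RPKM was divided by median-ratio size factors over 6298 genes, and limma 3.58.1 (lmFit, eBayes with trend) in R 4.3.3 was run on log2(value + 1), two-sided, over the 6307 genes that reached 1 RPKM in 3 or more of 6 libraries, and p-values were adjusted by Benjamini-Hochberg with calls at 0.05. Limma voom on the recovered reads was an alternative: it called 2628 of all genes higher and 2653 lower.

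The frames and lists were chosen with earlier results of these data known. Named genes were the 10 largest rises and falls whose higher group averaged 5 rescaled RPKM or more, the 3 highest frames in WT, the 3 largest rises and falls without a RefSeq match, and, for each of 26 lists by complex or role, all hyphenated genes plus the largest other rise and fall. Neighbours of these, and genes said to be so, were named after their values were seen. CMC3, GPI3 and RPB6 gave no RefSeq symbol, and SAE3, RDT1 and TAR1 did not pass the level. Names and 1-based spans came from RefSeq assembly R64, in which 5897 gene IDs matched and 674 did not.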

Additional observations from a re-analysis of the deposited data

How the results depend on the processing

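Scaling mattered most. With RPKM as deposited 4565 of all genes were higher and 1091 lower, and of the frames 329 were higher and 74 lower, with a median difference of 0.61. Quantile normalization gave a median of 0.10 for the frames. The signs of 23 named genes turned with RPKM as deposited, to log2 differences of RPL41B 0.22, RPL43B 0.024, TIM9 0.30, TIM10 0.17, TIM13 0.043, TOM5 0.23, MIC10 0.12, ATP19 0.35, CMC4 0.27, COA3 0.22, COA6 0.35, SBH2 0.11, SPC3 0.089, YOS1 0.29, YSY6 0.19, ERI1 0.15, GPI2 0.18, TSC3 0.34, SEM1 0.20, CDC31 0.11, LSM3 0.12, DAD3 0.24 and CGI121 0.010. Those of 16 turned with quantile normalization, to YDR524W-C 0.055, RPL29 0.19, RPL41B 0.43, RPL43B 0.22, NOP10 0.20, TIM9 0.24, TIM10 0.40, TOM5 0.15, ATP19 0.51, SBH2 0.31, YOS1 0.10, YSY6 0.38, TSC3 0.014, PMP1 0.13, PMA2 −0.10 and SEM1 0.44. Of the named genes, 13 gained and 6 lost a call with RPKM as deposited, and 8 gained and 3 lost one with quantile normalization. With RefSeq genes alone in the fit, 100 frames were higher and 98 lower, since only 257 enter. With 1 library left out, 176 to 188 frames were higher and 165 to 174 lower, with medians of 0.037 to 0.055. Other pseudocounts, filters, voom on whole reads and the fit without chromosome XI kept the counts of frames within 1.5-fold and turned no sign among the named genes fitted; without a filter 4 of the 111 named genes lost their call.

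With the replicate number as a replicate block, 186 frames were higher and 174 lower, and 2 of the 111 named genes lost their call. Deviations of same-numbered libraries correlated at −0.25, −0.09 and −0.28, and those of differently numbered libraries at −0.08 to 0.27. Deviations from a mean of 3 libraries are tied to each other, so these values cannot decide whether the numbers pair the samples. The labels give no shared batch, and the main fit did not pair them. Leaving out 1 library ended the calls of RPL41B, TIM12, ATP19, MRP10 and COA6, with limma adjusted p of up to 0.089, 0.16, 0.13, 0.11 and 0.052. Depth limits the frames under 50 reads.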
